A study of Arabidopsis thaliana with 4 samples.

Results

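Transcript levels of 31 genes for the Prp19 complex (NTC), PRP8 and other catalytic factors of the spliceosome were followed in 4 RNA-seq libraries of Arabidopsis thaliana. The genes were chosen by locus, with earlier results of these data known but by a rule that uses no measured value. They are 31 of the 24288 loci listed with a value in all 4 libraries, loci at 0 included. They comprise 6 core subunits of the NTC, 12 proteins related to it, 8 proteins of the U5 particle and of the larger particle it forms with U4 and U6, and 5 DEAH-box helicases and second-step factors. The libraries came from whole Columbia seedlings 12 days old, kept at 23 °C under a day of 16 h light and 8 h dark, on plates of Murashige and Skoog (MS) salts plus 3% sucrose. They represent wild type, atprmt5 (a mutant of the arginine methyltransferase gene PRMT5), and the lines m90 and s215. The series concerns suppressors of atprmt5 and how the NTC comes to join the activated spliceosome. The labels do not name the mutations that m90 and s215 carry, nor whether that of atprmt5 is among them. Each genotype was measured in 1 library, so differences are between libraries, without a test or a p-value.

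The spliceosome is built anew on every intron. The U5 particle arrives with U4 and U6, the helicase BRR2 then parts U4 from U6, and the NTC joins and stabilises the catalytic core that PRP8 holds together. DEAH-box helicases drive the later remodelling steps, and SLU7-type proteins, here SMP1 and SMP2, act in the choice of the 3′ splice site at the second step. In Arabidopsis the core of the NTC is also known as the MOS4-associated complex and is required for immunity, and PRMT5 methylates splicing proteins, Sm proteins among them.

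Levels are in RPKM, a read count divided by the length of the transcript and the depth of the library, and can be set side by side between genes. Where 4 levels are listed without their libraries, the order is wild type, atprmt5, m90, s215. Differences are log2 ratios of (RPKM + 1), which understate the change of low genes. They were taken over the 18688 loci whose mean reached 1 RPKM, which 30 of the 31 genes reached. A gene was counted at 2-fold and, more loosely, at 1.5-fold on that scale. Plain ratios of RPKM are followed by 95% counting intervals, which leave out the variation between plants.

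The libraries were scaled to between 17350612 and 17901204 reads. PRMT5 itself (AT4G31120) stood at 5.94 RPKM in wild type, 1.25 RPKM in atprmt5, 0.974 RPKM in m90 and 1.71 RPKM in s215, low in all 3 lines. The s215 library stood apart from the other libraries, with an SD of log2 ratios across loci between 1.35 and 1.43, against 0.50 to 0.58 among the other 3. Its label, whole seedlings, went against its root markers: the summed level of 6 root genes was between 1389 and 1581 RPKM elsewhere and 3.65 RPKM in s215, where 5 of the 6 were at 0. The sum of 9 genes of dividing cells was 17.2 RPKM in s215 and 227 to 368 RPKM in the others, and that of 5 green leaf genes was 6169 RPKM against 20517 to 22713 RPKM. The sum of 4 seed genes was 163 RPKM in wild type, 38.0 RPKM in atprmt5, 0.157 RPKM in m90 and 0.289 RPKM in s215, with 3 of the 4 at 0 in m90 and 2 in s215. The part of these tissue differences in the values below was not tested. In whole seedlings, fewer cells of a type and less RNA per cell cannot be told apart.

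Mean levels of the 31 genes ran from 0.368 RPKM for PRP8B to 430.0 RPKM for CWC15. Over wild type, atprmt5 and m90 they varied little. In 26 of the 30 genes above the minimum the highest of these 3 levels was less than 1.5 times the lowest, a condition that 58.3% of all tested loci met. That share was not matched to the levels of these genes, and counting error is wider at low levels. The other 4 were PRL2, MAC5B, MAC5C and STA1, of which all but STA1 had low levels. In 26 of the 30 genes the s215 library had the highest of the 4 levels, against 36.5% of all tested loci. Wild type was highest for PPIL1, atprmt5 for SYF1, and m90 for ISY1 and BUD31.

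**Figure D1:**
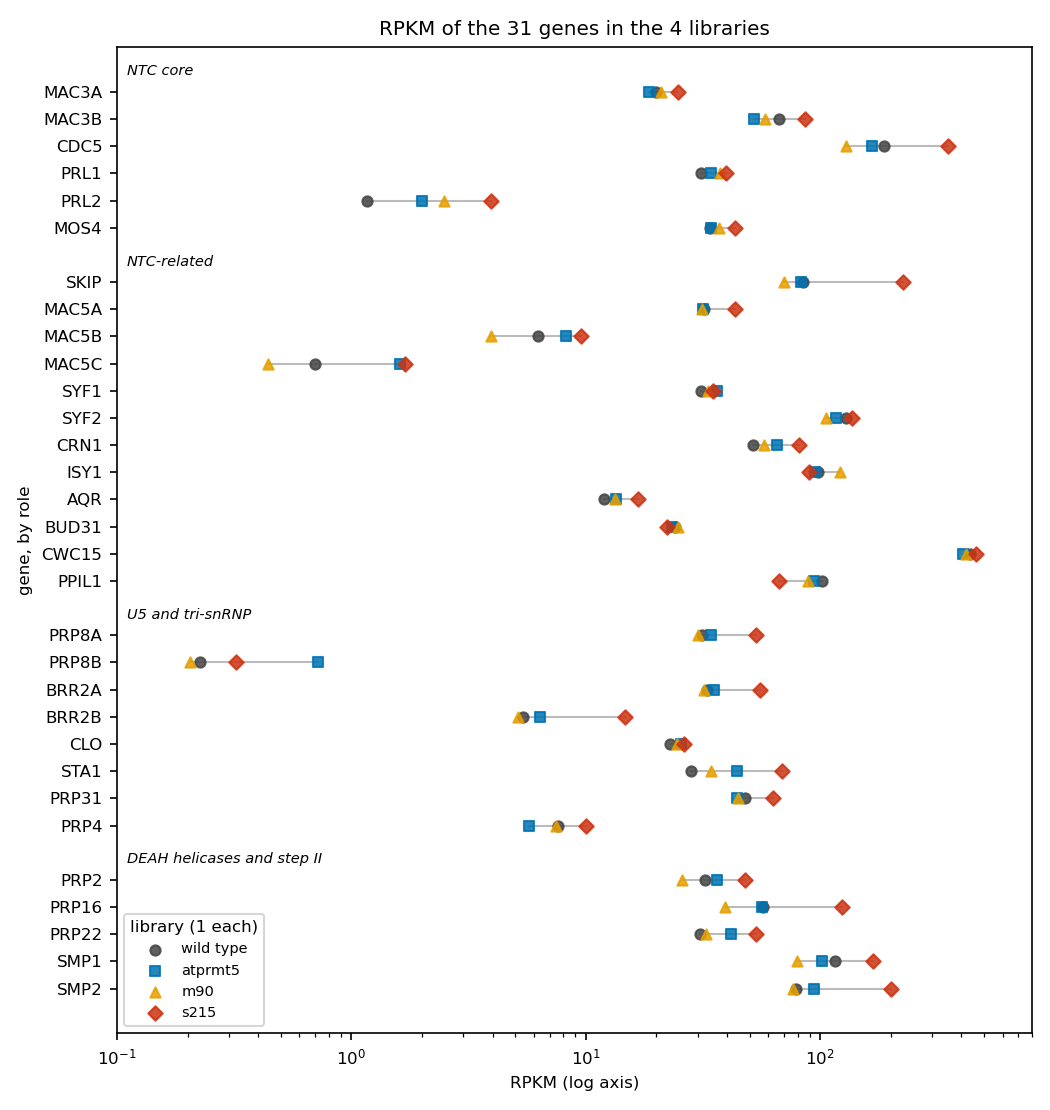
RPKM of each of the 31 genes (log axis) in wild type, atprmt5, m90 and s215, 1 library each, grouped by role; the grey line spans the 4 levels. The s215 diamonds lie to the right of the other symbols in 26 of the 30 genes whose mean reached 1 RPKM, and PRP8B, below that mean, is highest in atprmt5.

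Among the core subunits, CDC5 (AT1G09770), a Myb-domain scaffold protein, had the highest level, with 186 RPKM in wild type, 166 RPKM in atprmt5, 129 RPKM in m90 and 352 RPKM in s215. The s215 level was 2.13 times that of atprmt5 (2.07 to 2.18) and 1.89 times that of wild type (1.84 to 1.94). The m90 level was the lowest of the 4, at 0.777 of atprmt5 (0.753 to 0.802). CDC5 overlaps AT1G09780, on the opposite strand, by 247 bases, and that gene stood at 35.1 RPKM in wild type, 60.9 RPKM in atprmt5, 56.3 RPKM in m90 and 40.4 RPKM in s215. In s215 the neighbour was thus lower than in atprmt5 and higher than in wild type, while CDC5 was higher than both. The part of its reads in the CDC5 values was not tested.

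MAC3A (AT1G04510) and MAC3B (AT2G33340) are the Arabidopsis counterparts of yeast Prp19, the ubiquitin ligase that gives the complex its name. MAC3A stood at 19.8 RPKM in wild type, 18.5 RPKM in atprmt5, 21.0 RPKM in m90 and 24.7 RPKM in s215. MAC3B, the more abundant of the pair, stood at 66.7 RPKM, 52.3 RPKM, 58.2 RPKM and 86.0 RPKM in the same order. Both were highest in s215 and lowest in atprmt5, and MAC3B in atprmt5 was 0.784 of wild type (0.739 to 0.833).

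PRL1 (AT4G15900), a WD40-repeat protein needed for immunity and normal growth, had 31.04 RPKM in wild type, 34.2 RPKM in atprmt5, 37.2 RPKM in m90 and 39.6 RPKM in s215. Its paralog PRL2 (AT3G16650) was much lower, at 1.17 RPKM, 2.01 RPKM, 2.49 RPKM and 3.95 RPKM. PRL2 in s215 was 3.38 times wild type (1.90 to 5.90), on 18 recovered reads in wild type and 59 in s215. MOS4 (AT3G18165), a coiled-coil subunit first found through immunity, varied little, with 33.8 RPKM, 34.2 RPKM, 37.0 RPKM and 43.2 RPKM.

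Of the 12 related proteins, SKIP (AT1G77180) had the highest ratio of s215 to wild type. SKIP, a counterpart of yeast Prp45 that also acts in splicing of circadian clock genes, stood at 84.6 RPKM in wild type, 82.5 RPKM in atprmt5, 70.3 RPKM in m90 and 225 RPKM in s215. The first 3 levels lay close together and the s215 level was 2.66 times wild type (2.56 to 2.76) and 2.72 times atprmt5 (2.62 to 2.83). Only 7.69% of tested loci reached its log2 ratio of 1.40 against wild type.

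The MAC5 proteins bind RNA through a zinc finger and are counterparts of human RBM22. MAC5A (AT1G07360) carried most of the family's transcripts and was flat over the first 3 libraries, at 31.8 RPKM, 31.7 RPKM and 31.2 RPKM, with 43.4 RPKM in s215. MAC5B (AT2G29580) stood at 6.27 RPKM in wild type, 8.19 RPKM in atprmt5, 3.92 RPKM in m90 and 9.58 RPKM in s215. In m90 it was 0.479 of atprmt5 (0.382 to 0.597), and 3.12% of tested loci had a log2 ratio as low as its -0.90. MAC5C (AT5G07060), near the detection limit, stood at 0.701 RPKM, 1.60 RPKM, 0.442 RPKM and 1.69 RPKM, on 5 to 20 recovered reads a library. It passed the minimum of 1 RPKM only with the s215 library included. The MAC5A ratio of m90 to atprmt5 was 0.984 (0.899 to 1.08), so the lower m90 levels of MAC5B and MAC5C had no like difference in the main copy.

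Most other related proteins differed little. CWC15 (AT3G13200), a small protein of the activated spliceosome, had the highest level of all 31 genes and stayed between 406 RPKM in atprmt5 and 462 RPKM in s215. SYF1 (AT5G28740), a protein of HAT repeats, was lowest in wild type, at 30.9 RPKM, and highest in atprmt5, at 36.4 RPKM. SYF2 (AT2G16860) lay between 106 RPKM in m90 and 136 RPKM in s215. BUD31 (AT4G21110), a zinc-binding protein close to the catalytic core in yeast and human, lay between 22.2 RPKM in s215 and 24.8 RPKM in m90. For these 4 genes the highest level was at most 1.29 times the lowest.

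CRN1 (AT5G41770), the counterpart of the HAT-repeat scaffold Clf1 of yeast, stood at 51.9 RPKM in wild type, 65.2 RPKM in atprmt5, 57.3 RPKM in m90 and 81.1 RPKM in s215. AQR (AT2G38770), an RNA helicase bound to the intron, stood at 12.0 RPKM, 13.4 RPKM, 13.3 RPKM and 16.7 RPKM. Both were lowest in wild type and highest in s215. ISY1 (AT3G18790), which in yeast acts at the first step, was instead highest in m90, at 121 RPKM, with 98.2 RPKM in wild type, 94.9 RPKM in atprmt5 and 89.2 RPKM in s215. PPIL1 (AT2G36130), a cyclophilin, was the one gene lower in s215 at 1.5-fold, with 101 RPKM in wild type, 94.4 RPKM in atprmt5, 88.2 RPKM in m90 and 66.7 RPKM in s215. Its ratio of s215 to wild type was 0.658 (0.606 to 0.715). PPIL1 is short, at 876 bases, and its log2 ratio of -0.60 was that of its length class, -0.58, so that the call was lost when centred on the class.

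PRP8A (AT1G80070) encodes the large protein that cradles the splice sites. It stood at 31.2 RPKM in wild type, 34.2 RPKM in atprmt5, 30.02 RPKM in m90 and 53.2 RPKM in s215. The first 3 values lay within a narrow range and s215 was 1.71 times wild type (1.64 to 1.77). BRR2A (AT1G20960), the helicase that parts U4 from U6, had nearly the same levels, with 32.7 RPKM, 35.3 RPKM, 31.9 RPKM and 55.0 RPKM. BRR2A in s215 was 1.68 times wild type (1.62 to 1.75).

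The second copies of both genes were lower. BRR2B (AT2G42270) stood at 5.39 RPKM in wild type, 6.39 RPKM in atprmt5, 5.16 RPKM in m90 and 14.6 RPKM in s215, which was 2.72 times wild type (2.48 to 2.98). It overlaps AT2G42280, on the opposite strand, by 149 bases, and that gene stood at 6.52 RPKM, 5.55 RPKM, 5.03 RPKM and 16.7 RPKM, so both genes were highest in s215. PRP8B (AT4G38780) was below the minimum, at 0.226 RPKM in wild type, 0.717 RPKM in atprmt5, 0.204 RPKM in m90 and 0.322 RPKM in s215. Its atprmt5 level was 3.17 times wild type (2.07 to 5.05), on 92 recovered reads against 28, and its m90 level was 0.285 of atprmt5 (0.176 to 0.443).

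STA1 (AT4G03430), the counterpart of PRP6 that bridges U5 with U4 and U6 and is known in Arabidopsis for stress tolerance, stood at 28.1 RPKM in wild type, 44.0 RPKM in atprmt5, 34.2 RPKM in m90 and 68.3 RPKM in s215. It was 1.57 times wild type in atprmt5 (1.29 to 1.91) and 2.44 times in s215 (2.03 to 2.93). Wild type had the lowest STA1 level, and m90 was 1.22 times it (0.990 to 1.504). These STA1 intervals rest on a fitted length of 343 bases, where the annotated length is 4446 bases, so its reads may be understated. At the annotated length the interval of m90 to wild type was 1.15 to 1.289, so whether counting error separates them depends on the length used. PRP4 (AT2G41500), a WD40 protein of the U4/U6 particle, stood at 7.61 RPKM, 5.69 RPKM, 7.44 RPKM and 9.999 RPKM. PRP4 in atprmt5 was 0.748 of wild type (0.622 to 0.899), and m90 was close to wild type.

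CLO (AT1G06220), the GTPase counterpart of Snu114, differed least here, between 22.8 RPKM in wild type and 26.3 RPKM in s215. Its paralog AT5G25230 was low, at 0.0789 RPKM in wild type, 0.624 RPKM in atprmt5, 0.231 RPKM in m90 and 0.232 RPKM in s215. PRP31 (AT1G60170), which binds U4 RNA within the particle, lay between 44.2 RPKM in atprmt5 and 62.9 RPKM in s215.

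Among the late factors, PRP16 (AT5G13010), the helicase that acts between the 2 catalytic steps, stood at 56.9 RPKM in wild type, 56.2 RPKM in atprmt5, 39.2 RPKM in m90 and 123 RPKM in s215. Its wild-type and atprmt5 levels were nearly equal, m90 was 0.699 of atprmt5 (0.667 to 0.733) and s215 was 2.19 times atprmt5 (2.12 to 2.28). PRP2 (AT1G32490), the helicase that acts before the first step, stood at 32.3 RPKM, 36.3 RPKM, 25.6 RPKM and 47.7 RPKM. PRP22 (AT3G26560), which releases the spliced mRNA, stood at 30.7 RPKM, 41.4 RPKM, 32.5 RPKM and 53.3 RPKM, and was 1.35 times wild type in atprmt5 (1.27 to 1.43). Both were highest in s215, but the lowest library was m90 for PRP2 and wild type for PRP22.

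SMP1 (AT1G65660) and SMP2 (AT4G37120), counterparts of yeast Slu7, were the more abundant of the late factors. SMP1 stood at 115 RPKM in wild type, 102 RPKM in atprmt5, 79.2 RPKM in m90 and 169 RPKM in s215. SMP2 stood at 79.0 RPKM, 94.4 RPKM, 76.5 RPKM and 200.2 RPKM, and its s215 level was 2.53 times wild type (2.42 to 2.66). SMP1 was the higher of the pair in wild type, atprmt5 and m90, and SMP2 in s215.

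The first comparison asked how loss of PRMT5 transcript went with the levels of these genes. In atprmt5 against wild type none of the 30 genes was 2-fold higher or lower, where 1.8% of all tested loci were higher and 3.32% lower. At 1.5-fold, STA1 and MAC5C were higher and none was lower, against 7.26% higher and 10.1% lower among all tested loci. Neither call was stable: STA1, at a log2 ratio of 0.63, fell below 1.5-fold when centred on its length class, at 0.55, or with the GC content and length trend removed, at 0.46, and MAC5C dropped out when the minimum was set without s215. The median log2 ratio was 0.06 for the 30 genes and -0.003 for all tested loci, with 16 genes above 0 and 14 below. The 4 role groups had medians of -0.04 for the core, -0.02 for the related proteins, 0.13 for the U5 proteins and 0.16 for the late factors.

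For m90 against atprmt5 again no gene passed 2-fold, against 3.63% of tested loci higher and 2.34% lower. At 1.5-fold MAC5B and MAC5C were lower and no gene was higher, against 8.81% lower and 8.44% higher among tested loci. The median log2 ratio was -0.14 for the 30 genes and -0.04 for all tested loci. Of the core subunits 5 were above 0 and 1, CDC5, below, though the intervals of PRL1, PRL2 and MOS4 included equal levels. Of the related proteins 3 were above 0 and 9 below, of the U5 proteins 2 above and 5 below, and all 5 late factors were below, and these groups were not tested against each other. The late factors had log2 ratios of -0.51 for PRP16, -0.49 for PRP2, -0.36 for SMP1, -0.34 for PRP22 and -0.30 for SMP2. Among all tested loci 10066 of 18688 lay below 0. The split of the U5 proteins depended on transcript length. Relative to their length class, PRP8A, BRR2A and CLO turned above 0, at 0.06, 0.10 and 0.11, and BRR2B and STA1 stayed below, at -0.02 and -0.19. Of the related proteins, AQR and SYF1 turned above 0, at 0.15 and 0.03, and BUD31 below, at -0.05. All 5 late factors stayed below 0.

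For m90 against wild type, 0 of the 30 genes passed 2-fold in either direction, against 2.61% of tested loci higher and 2.62% lower. At 1.5-fold PRL2 was higher, with 2.49 RPKM against 1.17 RPKM, and no gene was lower, against 8.79% and 9.6% of tested loci. The median log2 ratio was -0.04 for both the genes and all tested loci. The lowest ratios belonged to MAC5B at -0.56, SMP1 at -0.54, CDC5 at -0.53 and PRP16 at -0.52.

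**Figure D2:**
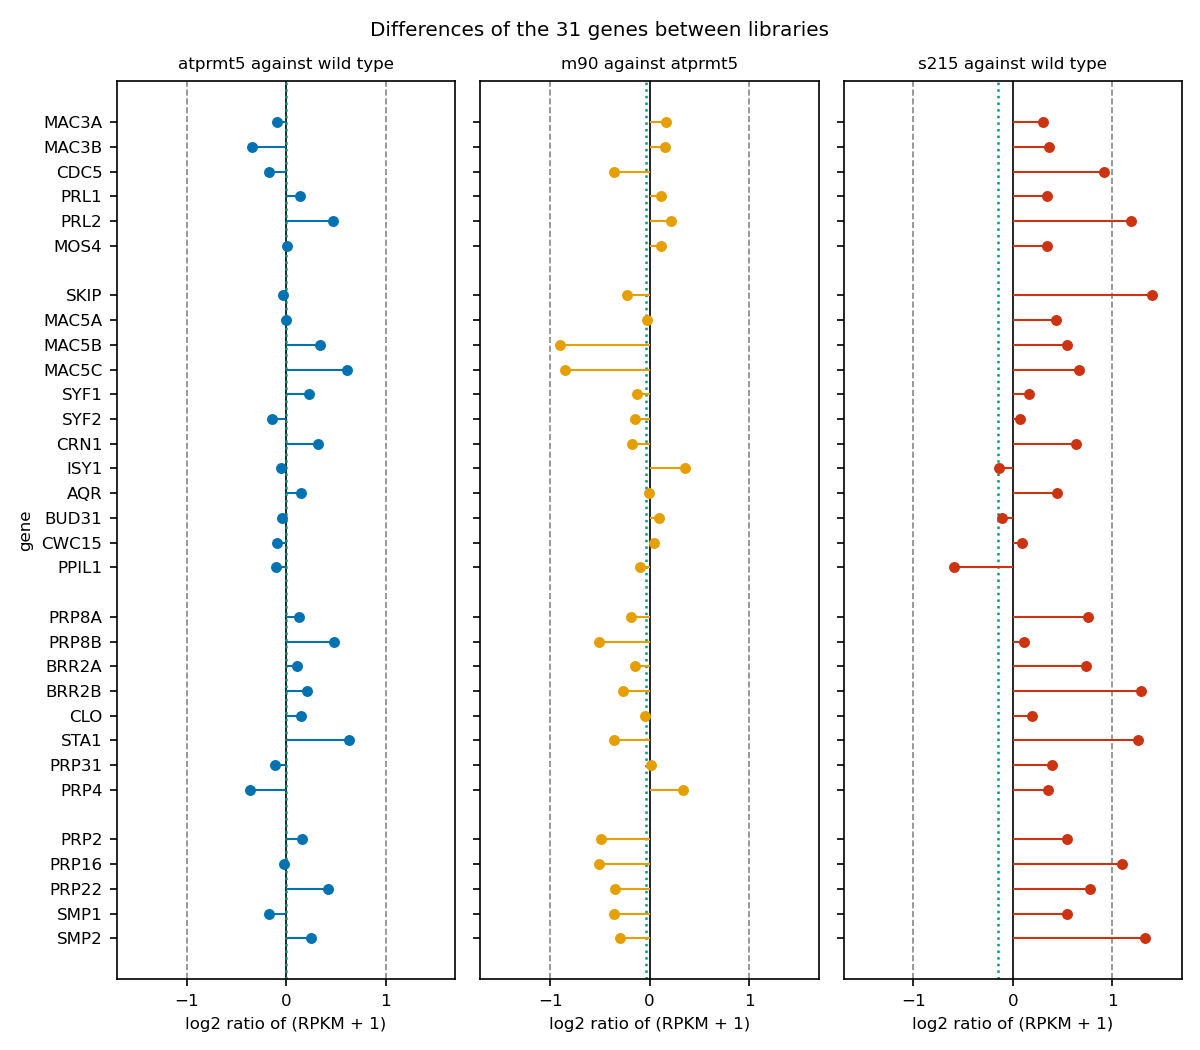
Log2 ratio of (RPKM + 1) of each of the 31 genes in atprmt5 against wild type, m90 against atprmt5 and s215 against wild type, with 1 library a genotype; dashed lines mark 2-fold and the dotted line the median of all tested loci. No gene crosses a dashed line in the first and second panels, and 6 do in the third, all to the right.

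Larger differences appeared in s215. Against wild type, 6 of the 30 genes were at least 2-fold higher (PRL2, SKIP, BRR2B, STA1, PRP16 and SMP2) and 0 were 2-fold lower, where 12.7% of all tested loci were higher and 24.3% lower. At 1.5-fold 12 were higher and only PPIL1 was lower, against 22.5% higher and 35.1% lower. Against atprmt5, 5 were 2-fold higher (CDC5, SKIP, BRR2B, PRP16 and SMP2) and 0 were lower, against 12.7% and 23.2% of tested loci. At 1.5-fold 12 were higher and 0 lower, against 22.5% and 33.6%. At 2-fold the 6 and 5 genes of 30 that were higher stood within 3 genes of the share of all loci, and at 1.5-fold 12 of the 30 stood beside 22.5%. Relative to loci of the same transcript length, 3 genes against wild type and 2 against atprmt5 were 2-fold higher. No share of all tested loci on that scale is given here. Both comparisons use the single s215 library, in which markers of root and dividing cells were nearly absent.

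The median log2 ratio of the 30 genes was 0.49 in s215 against wild type, where all tested loci had -0.15, and 0.39 against atprmt5, where all tested loci had -0.12. By role, the medians against wild type were 0.35 for the core, 0.30 for the related proteins, 0.73 for the U5 proteins and 0.77 for the late factors. This order did not take transcript length into account, and relative to length class it differed. There the middle values were 0.60 in the core (PRL1 and MOS4) and 0.80 in the late factors (SMP1). The middle tested U5 gene stood at 0.35 (PRP4), and those of the related proteins at 0.35 (CWC15) and 0.48 (BUD31). These groups were not tested against each other. Relative to their length class, core genes ran from 0.30 (MAC3A) to 1.44 (PRL2) and tested U5 genes from -0.07 (CLO) to 0.98 (STA1). Related genes ran from -0.10 (SYF1) to 1.40 (SKIP) and late factors from 0.28 (PRP2) to 1.33 (SMP2). All 6 core subunits, all 7 tested U5 proteins and all 5 late factors were above 0 in both s215 comparisons, before any allowance for length. Relative to its length class CLO lay below 0, at -0.16 against atprmt5 and -0.07 against wild type. With the GC content and length trend removed, CLO, PRP8A and BRR2A lay below 0 in both, and PRP22 was -0.064 against atprmt5. On the plain scale the following signs held for the related proteins. The related proteins were mixed, with ISY1, BUD31 and PPIL1 below 0 in both and SYF1 below 0 against atprmt5. Relative to length class, BUD31 had 0.44 against atprmt5 and 0.48 against wild type, and ISY1 had 0.10 and 0.12. In the same order PPIL1 had 0.007 and -0.016, and SYF1 had -0.27 and -0.10.

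Transcript length moved with the ratios. The 31 genes had a median longest transcript of 2193 bases, against 1742 bases for tested loci. In s215 against wild type the median log2 ratio of tested loci was -0.58 under 1000 bases, -0.25 from 1000 to under 2000 bases, 0.00 from there to under 3000 bases, 0.27 from there to under 5000 bases and 0.62 at 5000 bases or more. PRP8A, of 7522 bases, and BRR2A, of 7183 bases, had log2 ratios of 0.75 and 0.73, little above the 0.62 of loci as long as they are. With a smooth trend on GC content and length removed, the sign of both turned, to -0.35 for PRP8A and -0.32 for BRR2A against wild type.

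The genes called at 2-fold were picked for a high ratio, so their place above loci of their length is no separate support. SKIP and SMP2, of 2413 and 2005 bases, exceeded their class median by 1.40 and 1.33 against wild type. PRL2 exceeded its class by 1.44, STA1 by 0.98, PRP16 by 0.83 and BRR2B by 0.67. Of the 6 genes, 3 were 2-fold higher relative to their length class against wild type, PRL2, SKIP and SMP2. Against atprmt5 2 of the 5 were, SKIP and SMP2. In their classes, 8.96%, 8.32% and 9.21% of loci stood at least as high as PRL2, SKIP and SMP2 against wild type. Against atprmt5, 8.14% stood as high as SKIP and 12.6% as high as SMP2. Genes not called also stood high against wild type, with MAC5C 0.91, SMP1 0.80 and MAC5B 0.79 above their class, more than BRR2B. With the GC content and length trend removed, SMP2 had 1.31, SKIP 1.23 and PRL2 1.17 against wild type. On that scale STA1 had 0.63, PRP16 0.49 and BRR2B 0.28. Of all 30 genes, 27 lay above the median of their class against wild type and 28 against atprmt5. The corresponding numbers were 17 for atprmt5 against wild type, 14 for m90 against atprmt5 and 17 for m90 against wild type.

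Length moved with the m90 ratios in the opposite direction. In m90 against atprmt5 the class medians ran from 0.15 under 1000 bases through -0.11 and -0.16 to -0.24 at 5000 bases or more. PRP2, PRP16 and PRP22, with log2 ratios of -0.49, -0.51 and -0.34, belong to the class with a median of -0.16. With the GC content and length trend removed, PRP2 had -0.32, PRP16 -0.28 and PRP22 -0.13. The part of length in these differences was not tested beyond that removal and the centring on each class.

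**Figure D3:**
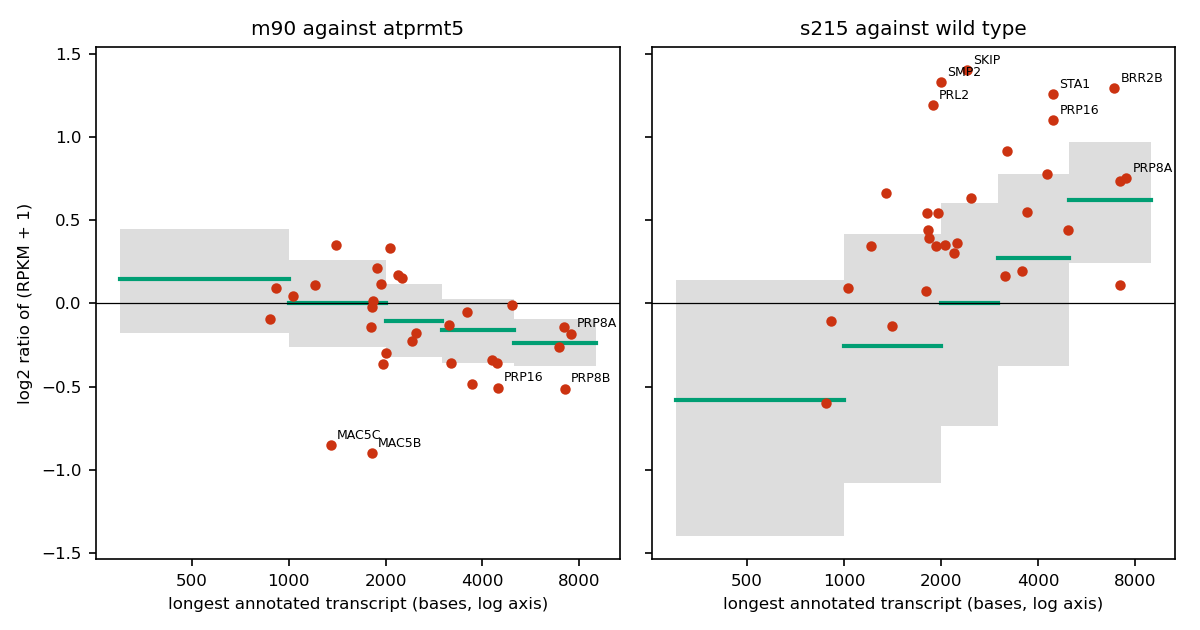
Log2 ratio of (RPKM + 1) against the longest annotated transcript (bases, log axis) for m90 against atprmt5 and s215 against wild type. Red points are the 31 genes, green lines are medians and grey boxes quartiles of tested loci in 5 length classes, the shortest drawn from 300 and the longest to 9000 bases. The medians fall with length on the left, from 0.15 to -0.24, and climb on the right, from -0.58 to 0.62.

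Paralog pairs let levels be compared within a library. PRP8B made up 2.05% of the summed PRP8 level in atprmt5 (1.67 to 2.52), 0.719% in wild type (0.478 to 1.04), 0.677% in m90 (0.442 to 0.990) and 0.602% in s215 (0.430 to 0.819). The atprmt5 interval lay above the other 3, which overlapped each other. BRR2B made up 13.9% of BRR2 in m90, 14.1% in wild type, 15.3% in atprmt5 and 21.0% in s215 (20.1 to 21.9), where only the s215 interval stood apart.

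SMP2 made up 40.7% of the SMP pair in wild type and 54.3% in s215 (53.4 to 55.2), and its intervals did not overlap between wild type, s215 and the other 2 libraries. MAC5B made up 20.5% of MAC5A plus MAC5B in atprmt5 (18.3 to 22.9) and 11.2% in m90 (9.35 to 13.2), with 16.5% in wild type and 18.1% in s215. PRL2 made up 3.63% of the PRL pair in wild type (2.24 to 5.81) and 9.07% in s215 (6.999 to 11.4). MAC3B made up 77.1% of the MAC3 pair in wild type (75.5 to 78.6) and 77.7% in s215 (76.4 to 79.0), against 73.8% in atprmt5 (72.1 to 75.5) and 73.5% in m90 (71.8 to 75.1). Shares of 2 genes in the same library do not depend on how that library was scaled.

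**Figure D4:**
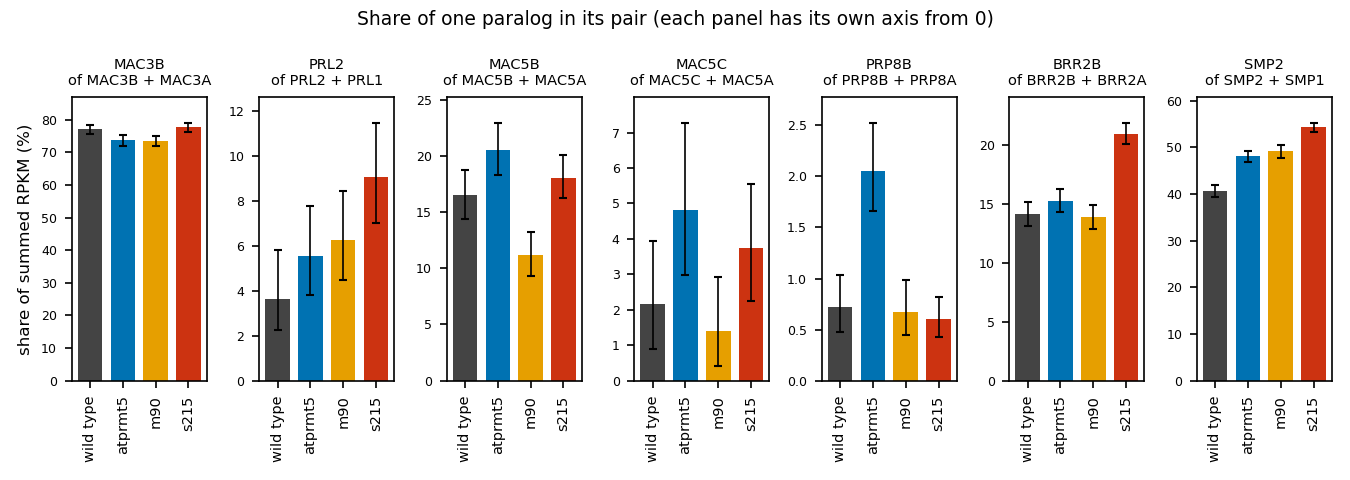
Share of the first-named paralog in the summed RPKM of its pair (%), in each library, with 95% counting intervals; every panel has its own axis from 0. PRP8B peaks in atprmt5 at 2.05%, BRR2B and SMP2 are highest in s215 at 21.0% and 54.3%, and MAC5B is lowest in m90 at 11.2%.

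Whether reads could be mistaken between paralogs depends on their sequences. Protein identity was 93.5% for PRP8A and PRP8B, 89.3% for SMP1 and SMP2, 83.2% for BRR2A and BRR2B, and between 73.8% and 86.8% for the others. No pair shared a window of 100 bases, the read length, in its transcripts. The longest shared coding stretches of the giant U5 genes are printed here because they show how far the copies can be alike. They lie at chr1:30120473-30120525 (plus strand) in PRP8A and chr1:7305013-7305074 (minus strand) in BRR2A, on TAIR10.1, and run for 53 and 62 bases.
PRP8A and PRP8B: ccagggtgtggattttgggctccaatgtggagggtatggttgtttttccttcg
BRR2A and BRR2B: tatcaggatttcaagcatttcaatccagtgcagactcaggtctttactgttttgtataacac
Both stretches are shorter than a read, so a read of 100 bases within the exons of either gene meets at least 1 difference from the other copy. How the authors' processing placed reads with several matches is not given in the sources used here.

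A short motif was common in the promoters, less so in those of the core subunits than in the other roles. TGGGCC or TGGGCT, on either strand, known as site II and common upstream of plant genes for growth and protein synthesis, occurred in the 250 bases before the annotated start of 22 of the 31 genes (71.0%), against 22.9% of 18611 tested loci. There were 2 or more matches in 17 genes (54.8%) and in 15.2% of tested loci. All 8 U5 genes and all 5 late factors held it, as did 7 of the 12 related genes and 2 of the 6 core genes, CDC5 and PRL2. The windows of CDC5 and PRL2 overlap a neighbouring annotated gene, and 6 core genes are too few to set against the 22.9%. The telo box, AAACCCTA, was found before 3 genes (9.68%), against 3.53% of tested loci. A match is a description of letters, not of a bound site, and 14 of the 31 windows overlap a neighbouring annotated gene.

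The windows of 3 genes with several matches and no overlapping gene are shown, 1 each for a related protein, a U5 protein and a late factor, 5′ to 3′ on the strand of the gene, with matches on either strand in capitals. CRN1 lies at chr5:16717696-16717945 (plus strand), BRR2A at chr1:7310272-7310521 (minus strand) and PRP16 at chr5:4122150-4122399 (plus strand), on TAIR10.1.
CRN1: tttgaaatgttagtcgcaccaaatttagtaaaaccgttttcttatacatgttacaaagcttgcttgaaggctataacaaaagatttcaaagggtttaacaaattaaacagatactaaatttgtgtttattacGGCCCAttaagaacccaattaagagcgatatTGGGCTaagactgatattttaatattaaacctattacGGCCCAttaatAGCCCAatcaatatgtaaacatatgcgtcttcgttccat
BRR2A: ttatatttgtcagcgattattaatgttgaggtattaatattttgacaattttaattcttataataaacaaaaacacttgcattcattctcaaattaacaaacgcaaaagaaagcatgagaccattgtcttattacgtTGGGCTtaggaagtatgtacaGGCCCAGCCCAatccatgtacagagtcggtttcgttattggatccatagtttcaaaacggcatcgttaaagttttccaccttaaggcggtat
PRP16: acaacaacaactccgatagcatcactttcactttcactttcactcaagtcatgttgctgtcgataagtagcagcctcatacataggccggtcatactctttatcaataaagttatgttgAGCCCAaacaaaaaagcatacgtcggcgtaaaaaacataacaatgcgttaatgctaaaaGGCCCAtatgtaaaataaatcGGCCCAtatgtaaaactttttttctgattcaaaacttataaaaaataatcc
CRN1 held 4 matches, and BRR2A and PRP16 held 3 each, of which 2 overlap by 1 base in BRR2A. Their s215 levels were 1.56 times wild type for CRN1, 1.68 times for BRR2A and 2.16 times for PRP16. Relative to length class, the log2 ratios were 0.63, 0.11 and 0.83 in the same order. The part of the motif in these differences was not tested.

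A further 25 spliceosome genes outside the 31, for other particle proteins, step-two and disassembly factors, were set beside them. In atprmt5 against wild type, m90 against atprmt5 and m90 against wild type, 0 of the 24 above the minimum passed 2-fold. Among all tested loci 1.8% to 3.63% passed it in each direction, so 0 of 24 stood near that share. In s215 against wild type 4 were 2-fold higher and 1 lower, beside 12.7% and 24.3% of all tested loci, with a median log2 ratio of 0.51 beside the 0.49 of the 30 genes. The 4 were PRP28 (AT2G33730), the helicase that exchanges U1 for U6 at the 5′ splice site, PRP38 (AT2G40650), DOT2 (AT5G16780) and CWC22 (AT1G80930). PRP28 stood at 59.1 RPKM in wild type, 81.9 RPKM in atprmt5, 66.1 RPKM in m90 and 207 RPKM in s215, the highest log2 ratio to wild type of all 54 tested genes, at 1.79. The lower gene was AT4G12600, for a Snu13-type protein of the U4 particle, with 213 RPKM in wild type and 103 RPKM in s215.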

How the data were processed

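RNA-seq of 4 samples, 1 per genotype label, was used. Per the labels' protocols, Trizol was used for extraction and a SMART method for strand-specific libraries. The submitters' processing notes name TopHat2 2.0.11 and build TAIR10. The authors deposited RPKM for 24288 loci in 1 table. How reads were counted, with or without strand and at several matches, is not given in the sources used here. A bias of the library method with transcript length would enter RPKM directly.

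The genes, lists, thresholds and naming rule were chosen with earlier results of these data known. All 31 genes are described. Of other spliceosome genes and PRMT5, those past 2-fold in a comparison, paralogs and the targeted gene are named. Neighbours that overlap a gene were named after their values were seen.

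Log2 ratios used a pseudocount of 1 RPKM over loci whose mean reached 1 RPKM. Reads were recovered with the RPKM of 1 read in each library and, for each gene, the smallest whole length that turned all 4 values into whole bases of 100-base reads, within 0.005 bases. Such a length was found for all 31 genes and lay between 0.85 and 1.05 of the annotated length for 26. For PRL2, MAC5C and STA1 it was under 0.6 of the annotated length, so their reads may be understated and their intervals too wide. Intervals are 95% exact (Clopper-Pearson, conditional on summed reads) and cover counting error only, since reads that carry no molecular identifier may copy 1 molecule. The functions were tested on simulated data.

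Lengths, coordinates and sequences came from the RefSeq genome and annotation of TAIR10.1. No deposited value carries coordinates, so builds were not mixed. Loci were matched by locus name, with a length for 31 of the 31 genes and 18611 of the 18688 tested loci. Coding sequences were aligned with Biopython 1.88. Python 3.11.15, numpy 2.4.6, pandas 2.3.3 and scipy 1.17.1 were used. Alternatives were other pseudocounts, other minimum levels, rescaling, and removal of trends in GC content and length. A test between genotypes, and splicing itself, were not analysed here.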

Additional observations from a re-analysis of the deposited data

Results flagged for a closer look

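Among the genes at least 2-fold higher in s215 than in atprmt5, 5 lay in the opposite direction in m90 against atprmt5, on the log2 scale of (RPKM + 1). CDC5 had -0.36 in m90 and 1.08 in s215. SKIP had -0.23 in m90 and 1.44 in s215. BRR2B had -0.26 in m90 and 1.08 in s215. PRP16 had -0.51 in m90 and 1.12 in s215. SMP2 had -0.30 in m90 and 1.08 in s215. Of all 2370 tested loci at least 2-fold higher in s215 than in atprmt5, 53.9% were likewise below 0 in m90. For BRR2B the opposite direction was lost once a smooth trend on GC content and length was taken out, where its m90 value was 0.094, and it was -0.024 when centred on its length class. Each direction rests on 1 library a line, both use the same atprmt5 library, and the difference between the lines was not tested. Root markers summed to 3.65 RPKM in s215 and 1389 RPKM in m90, and the ratios of all tested loci fell with transcript length in m90 and climbed with it in s215.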

How the results depend on the processing

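No paired analysis was possible because each genotype has 1 library and no result comes from a test; for the same reason no replicate could be left out. Of 225 values recomputed for the counts and medians, 194 stayed within the limits set for a change. Of the ratios of at least 1.5-fold, those of PRP8A and BRR2A turned when a trend in GC content and length was removed, to -0.20 and -0.16 in s215 against atprmt5 and to -0.35 and -0.32 in s215 against wild type. Smaller ratios turned in every comparison, among them in m90 against atprmt5 to 0.21 for PRP8A, 0.23 for BRR2A and 0.094 for BRR2B. In s215 against wild type AQR turned to -0.25, CLO to -0.25, SYF1 to -0.17 and BUD31 to 0.17. In s215 against atprmt5 AQR turned to -0.22, CLO to -0.28, PRP22 to -0.064, BUD31 to 0.14 and ISY1 to 0.03. In atprmt5 against wild type PRP8A and BRR2A turned to -0.16 each.

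The same removal gave medians of -0.044 for atprmt5 against wild type, -0.013 for m90 against atprmt5, 0.23 for s215 against atprmt5 and 0.29 for s215 against wild type. It left 1 gene, MAC5C, 1.5-fold higher in atprmt5, 2 genes 2-fold higher in s215 against atprmt5, and against wild type 3 genes 2-fold higher, 5 genes 1.5-fold higher and 0 lower. Centring on the same length class, chosen after seeing the data, left 1 gene, MAC5C, 1.5-fold higher in atprmt5. It left 2 and 3 genes 2-fold higher in s215 against atprmt5 and wild type. In s215 against wild type it left 0 genes 1.5-fold lower, and the median for m90 against atprmt5 was -0.025. For neither scale is the share of all tested loci past a fold given here.

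Rescaling moved the s215 medians, since all tested loci had medians of -0.12 and -0.15: centring on that median gave 0.51 against atprmt5 and 0.64 against wild type, and a trimmed mean gave 0.52 and 0.64. Both left 0 genes 1.5-fold lower against wild type. A pseudocount of 0.1 RPKM gave 1 gene 2-fold higher in atprmt5, 2 genes 2-fold lower in m90 against atprmt5, and in m90 against wild type 1 gene 2-fold higher and 1 gene 1.5-fold lower. A pseudocount of 0.5 RPKM gave 1 gene 2-fold lower in m90 against atprmt5 and 1 gene 1.5-fold lower against wild type. A minimum of 5 RPKM left 1 gene, STA1, 1.5-fold higher in atprmt5, 1 gene 1.5-fold lower in m90 against atprmt5 and 0 genes 1.5-fold higher in m90 against wild type. A minimum set without s215, also chosen after seeing the data, dropped MAC5C and left 1 gene, STA1, 1.5-fold higher in atprmt5 and 1 gene 1.5-fold lower in m90 against atprmt5. Depth limits PRL2, MAC5C and PRP8B, with at most 92 recovered reads in any library.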
